A study of Mus musculus with 10 samples.

Results

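The 8 genes described here encode the mouse receptors for the constant (Fc) part of immunoglobulin G and the proteins that pass on their signal: Fcgr1, Fcgr2b, Fcgr3, Fcgr4, Fcer1g, Fcgrt, Tyrobp and Syk. They were listed by name, not by any measured value, and all 8 were found among the 55487 genes of the count tables. Their mRNA was measured by low-input RNA sequencing in 10 libraries from 10-wk-old diestrus females on a BALB/c background. All mice carried floxed Cebpb alleles, and Cebpb encodes C/EBPβ, a transcription factor of myeloid and epithelial cells. WT mice lacked Cre, whereas CebpbΔM mice (labelled as knockdown, described in the study's methods as a conditional deletion) carried Csf1r-iCre, which is active in CSF1R-expressing myeloid cells. Macrophages were enriched from digested mammary glands by positive selection for F4/80, with 2 WT libraries (replicates 4 and 5) and 4 CebpbΔM libraries (replicates 4 to 7). Mammary epithelial cells (MECs), from which other lineages had been depleted, gave 2 WT and 2 CebpbΔM libraries (replicates 1 and 3 of each). The deletion in the MEC experiment is therefore in the macrophages of the host and not in the sequenced cells. The sources used here do not say that each library came from 1 mouse, so p-values measure the spread between these libraries, which may be technical in part.

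Fcgr1, Fcgr3 and Fcgr4 encode the activating receptors, which bind antibody-coated particles and reach the cell surface together with the adaptor encoded by Fcer1g, the common γ chain. Fcgr2b encodes the inhibitory receptor. Fcer1g and Tyrobp (DAP12) are small membrane adaptors with an activation motif in their tails. Src family kinases phosphorylate that motif, and the kinase Syk binds it and starts the signal for phagocytosis and cytokine release. Fcgrt encodes the heavy chain of the neonatal Fc receptor, which pairs with β2-microglobulin and protects immunoglobulin G from breakdown inside the cell. Mammary macrophages lie along the ducts and in the stroma and clear dying cells, and Fc receptors are part of the usual surface of such cells.

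Fcgr2b (chr1:170958617-170976547, minus strand), Fcgr4 (chr1:171018920-171029761, plus strand), Fcgr3 (chr1:171051174-171064935, minus strand) and Fcer1g (chr1:171229572-171234365, minus strand) lie close together in the mouse genome (GRCm38). Fcgr1 lies at chr3:96282909-96293969 on the minus strand and Syk at chr13:52583173-52648792 on the plus strand. Tyrobp (chr7:30413760-30417585, plus strand) and Fcgrt (chr7:45092990-45103851, minus strand) share a chromosome without being neighbours.

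The promoter windows of the 4 Fcγ receptor genes are shown because all 4 were low in MEC libraries and high in macrophage libraries, while their macrophage levels differed among themselves. Each window is 300 bases of the mouse genome (GRCm38.p6), from 250 bases before to 50 bases after the RefSeq start site, on the strand of the gene. Windows were found for 7 of the 8 genes, Tyrobp being the other. Capitals mark GAGGAA, the core of the sites bound by the myeloid factor PU.1, or its reverse complement TTCCTC. The window of Fcgr1 is chr3:96293920-96294219 on the minus strand, that of Fcgr3 chr1:171059354-171059653 on the minus strand, that of Fcgr4 chr1:171018676-171018975 on the plus strand and that of Fcgr2b chr1:170976022-170976321 on the minus strand.
Fcgr1: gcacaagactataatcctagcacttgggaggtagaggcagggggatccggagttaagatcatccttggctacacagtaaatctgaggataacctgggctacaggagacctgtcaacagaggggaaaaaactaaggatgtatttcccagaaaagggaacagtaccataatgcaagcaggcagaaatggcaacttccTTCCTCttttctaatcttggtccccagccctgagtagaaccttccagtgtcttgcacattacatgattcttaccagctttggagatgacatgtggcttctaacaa
Fcgr3: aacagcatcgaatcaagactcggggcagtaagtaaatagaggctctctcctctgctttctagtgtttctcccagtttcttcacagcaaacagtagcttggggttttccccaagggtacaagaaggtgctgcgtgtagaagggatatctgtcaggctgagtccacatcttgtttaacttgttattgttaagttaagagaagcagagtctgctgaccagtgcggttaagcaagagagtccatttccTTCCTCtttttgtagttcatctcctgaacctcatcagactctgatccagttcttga
Fcgr4: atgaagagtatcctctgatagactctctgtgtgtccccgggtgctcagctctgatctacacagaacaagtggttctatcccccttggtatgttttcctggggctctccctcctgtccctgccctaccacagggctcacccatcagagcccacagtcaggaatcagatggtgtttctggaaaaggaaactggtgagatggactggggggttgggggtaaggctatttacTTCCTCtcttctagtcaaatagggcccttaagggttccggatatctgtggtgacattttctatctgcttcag
Fcgr2b: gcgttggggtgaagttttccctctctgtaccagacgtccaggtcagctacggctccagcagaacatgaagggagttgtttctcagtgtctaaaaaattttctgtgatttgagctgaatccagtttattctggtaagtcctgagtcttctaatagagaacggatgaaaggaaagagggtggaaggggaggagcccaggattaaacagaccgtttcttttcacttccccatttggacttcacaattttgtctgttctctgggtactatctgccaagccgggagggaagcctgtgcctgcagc

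GAGGAA was present, on either strand, in the windows of the activating receptors Fcgr1, Fcgr3 and Fcgr4, where it began at positions -55, -6 and -22 from the start site, and 28.3% of all 32851 RefSeq windows held it. Fcgr3 has a second RefSeq start site 9 bases away with the same match. Fcgr1 and Fcgr3 shared a run of 14 bases around this match, the longest among the 4 windows. Syk has 2 windows, of which 1 held GAGGAA, and the windows of Fcgr2b, Fcer1g and Fcgrt held none. The letters TTGCNNAA, a core form of the C/EBP site, were found on either strand in the windows of Fcgr3 and Fcgrt and in 10.8% of all windows. TTCNNNGAA, the form of site bound by STAT factors, was found in Fcgr1 alone of these 7 genes and in 8.3% of all windows. A match describes the letters of the window only, and binding was not measured.

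The libraries held 25310926 to 27008166 counts in MECs and 16935000 to 20174722 in macrophages. Cebpb itself was counted at 13 and 15 in the WT macrophage libraries and at 16, 13, 5 and 4 in those labelled CebpbΔM 4 to 7. Per library size, CebpbΔM 4 lay above both WT libraries at 0.837 CPM, CebpbΔM 5 lay just below them at 0.652 CPM, and CebpbΔM 6 and 7 were lowest at 0.277 and 0.247 CPM, against 0.681 and 0.747 CPM in WT. The difference in level did not pass an exact two-sided permutation test (p = 0.533, and 0.133 is the smallest p that 2 against 4 libraries allow). The macrophage libraries are named by their labels below, and the genotype differences are also given with CebpbΔM libraries 6 and 7 only. In MECs Cebpb was counted at 25 and 28 in WT and at 69 and 42 in CebpbΔM. The macrophage libraries held macrophage RNA along with RNA of other cells. The summed level of 12 macrophage markers was 9216 to 10590.0 CPM (counts relative to the library total, scaled by the trimmed mean of M-values, TMM) in WT and 11960.0 to 17490.0 in CebpbΔM, against 236 to 409.9 in MEC libraries. The summed level of 12 epithelial markers was 10340.0 to 10630.0 in WT macrophage libraries and 5821 to 8225 in CebpbΔM, against 31640.0 to 38680.0 in MEC libraries. The summed level of 9 fibroblast, endothelial and fat cell (stromal) markers was 6379 to 6790 CPM in WT macrophage libraries and 3854 to 7262 in CebpbΔM. In MEC libraries it was 3894 to 4677 in WT and 4160 to 4962 in CebpbΔM. B cell, T and NK cell and eosinophil marker lists summed to at most 27.3 CPM in any library.

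Every one of the 8 genes was far higher in macrophage than in MEC libraries, in both genotypes. Fcgr2b and Fcgrt, which alone of the 8 passed the filter on low counts in MECs, were called higher in macrophage libraries of both genotypes by the quasi-likelihood (QL) test of edgeR across all 10 libraries, with calls made up to an adjusted p of 0.05. Over the 18323 genes tested, 14.8% were called in that direction in WT and 18.9% in CebpbΔM. The other 6 genes passed the filter only through the macrophage libraries, so that they had to differ, and their differences are given as a description. Cell type, isolation method and experiment cannot be told apart in this comparison. In bulk samples, fewer cells of a type and less RNA per cell cannot be told apart either.

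Of the activating receptors, Fcgr1, the high-affinity receptor, was counted at 14 and 2 in WT MECs and at 6 and 6 in CebpbΔM MECs. Its pooled level was 125 times higher in WT macrophage than in WT MEC libraries (95% exact counting interval, 76.8 to 219) and 222 times higher in CebpbΔM (127 to 431). Such intervals cover counting error only. Fcgr3, the low-affinity receptor of most macrophages, was at 1 and 5 counts in WT MECs and at 7 and 7 in CebpbΔM MECs. Its pooled ratio was 1645 in WT (755 to 4484) and 1075 in CebpbΔM (640.5 to 1966). Fcgr4, a receptor for IgG2 antibodies, was counted at 4 and 8 in WT MECs, at 3 in CebpbΔM MEC 3 and at 0 in CebpbΔM MEC 1, where 3 counts would be 0.115 CPM. Its ratio was 42.2 (23.9 to 82.3) in WT and 266 (90.7 to 1290.0) in CebpbΔM, the latter resting on 3 MEC counts. The fitted log2 differences of these 3 receptors in WT were 6.94 (SE 0.52) for Fcgr1, 10.61 (SE 0.56) for Fcgr3 and 5.36 (SE 0.63) for Fcgr4. With single MEC libraries left out, that of Fcgr1 ran from 6.14 (without WT MEC 3) to 8.86 (without WT MEC 1), beyond its counting interval. That of Fcgr3 ran from 9.89 (without WT MEC 1) to 12.07 (without WT MEC 3), within its counting interval. In CebpbΔM the value of Fcgr4 was 7.93, and 7.02 without CebpbΔM MEC 1. Without CebpbΔM MEC 3 the group is left at 0 counts and no fold is given.

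The inhibitory receptor Fcgr2b was the only Fcγ receptor above 1 CPM in MEC libraries, at 2.13 and 2.02 CPM in WT and 1.65 and 1.29 CPM in CebpbΔM. The macrophage level was 121 times higher in WT (100.3 to 148) and 303 times higher in CebpbΔM (242 to 384). The adaptors were near the floor of 3 counts in MECs. Fcer1g was counted at 6 and 8 in WT and 8 and 5 in CebpbΔM, and Tyrobp at 6 and 12 in WT and 4 and 2 in CebpbΔM. The ratio of Fcer1g was 340.3 in WT (203 to 623) and 626 in CebpbΔM (366 to 1176). Tyrobp had a fitted log2 difference of 7.94 in WT (SE 0.41) and a ratio of 1270.0 in CebpbΔM (583 to 3461). Syk was counted at 0 and 3 in WT MECs, where 3 counts would be 0.114 CPM in the library at 0, and at 13 and 5 in CebpbΔM MECs. Its ratio was 1197 in WT (409 to 5808) and 316 in CebpbΔM (199.7 to 533). Its fitted log2 difference in WT was 10.09, and 9.14 without WT MEC 1, and without WT MEC 3 the group is left at 0 counts. In CebpbΔM it was 8.29, and 9.15 without CebpbΔM MEC 1.

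Fcgrt differed from the other 7 genes in its epithelial level. It stood at 78.5 and 96.6 CPM in WT MECs and at 84.9 and 80.0 CPM in CebpbΔM MECs, so that the genotypes overlapped. The macrophage level was 9.97 times higher in WT (9.67 to 10.3) and 13.8 times higher in CebpbΔM (13.4 to 14.2), with fitted log2 differences of 3.31 (SE 0.30, edgeR QL adjusted p = 2.04e-05) and 3.80 (SE 0.29, edgeR QL adjusted p = 4.00e-06). B2m, which encodes its partner chain, was also abundant in both cell types, at 20284 to 51599 counts per MEC library and 24362 to 41698 per macrophage library. The plot of all libraries shows Fcgrt as the one gene of the 8 with a MEC level within about an order of magnitude of the macrophage level.

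**Figure D1:**
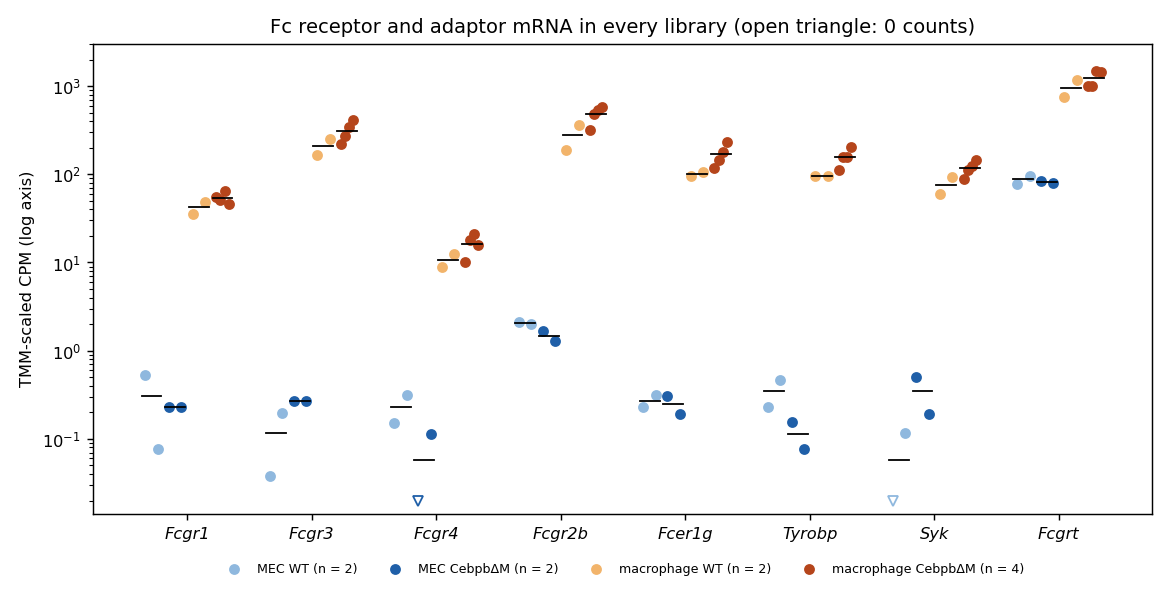
TMM-scaled CPM (log axis) of the 8 genes in each of the 10 libraries, with 1 point per library, a bar at the group mean and an open triangle for a count of 0. MEC points lie at or below 2.13 CPM for 7 genes and between 78.5 and 96.6 CPM for Fcgrt, below all macrophage points of the same gene.

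Levels were compared between genes per length, as TMM-scaled RPKM (CPM divided by gene length in kilobases), with the exon lengths of the count tables. In WT macrophage libraries Fcgrt was highest at 455 ± 138 (SD, n = 2), followed by Tyrobp at 143 ± 0.72, Fcgr3 at 119.9 ± 33.4 and Fcer1g at 115 ± 9.26. Fcgr3 overlapped both Tyrobp and Fcer1g over libraries, while Tyrobp lay above Fcer1g in both. Fcgr2b followed at 47.5 ± 21.7, apart from its neighbours. Fcgr1 at 16.3 ± 3.59, Fcgr4 at 8.50 ± 2.11 and Syk at 8.08 ± 2.49 were lowest, and Fcgr4 and Syk overlapped. In CebpbΔM macrophage libraries (n = 4) the order was Fcgrt at 584 ± 126, Tyrobp at 236 ± 54.4, Fcer1g at 194 ± 56.7, Fcgr3 at 179.9 ± 49.8, Fcgr2b at 82.9 ± 20.0, Fcgr1 at 21.0 ± 3.06, Fcgr4 at 12.96 ± 3.69 and Syk at 12.5 ± 2.499. Fcer1g and Fcgr3 thus changed places between genotypes while their ranges overlapped in each. The exon length of Syk is 9362 bases, of Fcgr2b 5790, and of Tyrobp 667, and without division by length both long genes rank higher.

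Between genotypes, all 8 genes had a higher fitted level in macrophage libraries labelled CebpbΔM than in WT, by 1.28- to 1.74-fold, and 0 of 8 passed the QL test. Over all 17772 genes tested in macrophages 50.4% had a positive log2 fold change, and 0% (0 genes) were called at an adjusted p of 0.05 or less. At an unadjusted p under 0.05, 4 of the 8 genes (Fcer1g, Tyrobp, Fcgr2b and Syk) were higher in CebpbΔM, against 4.96% of all genes, and 1534 genes in either direction passed. edgeR's likelihood ratio test called 138 genes and DESeq2 201, with 0 of the 8 among them in each case. The comparison asks which genes differ between macrophage libraries labelled CebpbΔM and WT.

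Among the activating receptors, Fcgr1 stood at 35.6 and 48.8 CPM in WT 4 and 5 and at 55.0, 51.5, 64.7 and 45.8 CPM in CebpbΔM 4 to 7. CebpbΔM 7 lay below WT 5, so the genotypes overlapped, with means of 42.2 ± 9.30 and 54.3 ± 7.92 CPM (SD). The log2 fold change was 0.36 (SE 0.21, edgeR QL adjusted p = 0.68). Fcgr3 stood at 167 and 249 CPM in WT and at 219.6, 269, 344 and 417 CPM in CebpbΔM 4 to 7. CebpbΔM 4 lay below WT 5 and the other 3 above it, with a log2 fold change of 0.59 (SE 0.29, edgeR QL adjusted p = 0.61). Fcgr4 was the lowest of the receptors, at 8.79 and 12.5 CPM in WT and 10.2, 18.2, 21.1 and 15.6 CPM in CebpbΔM. It overlapped through CebpbΔM 4, and its log2 fold change was 0.61 (SE 0.34, edgeR QL adjusted p = 0.66).

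Fcgr2b, the inhibitory receptor, had the greatest difference in fitted level of the 8 genes. It stood at 187 and 364 CPM in WT and at 315, 488, 541 and 576 CPM in CebpbΔM 4 to 7. WT 5 was 1.95 times WT 4, and CebpbΔM 4 lay between them while the other 3 lay above. The log2 fold change was 0.80 (SE 0.33, edgeR QL adjusted p = 0.55). Fcgr2b and Fcgr3 share sequence in their extracellular parts. Of the distinct 50-base windows of Fcgr3 transcripts 9.58% occurred in Fcgr2b transcripts, and 0% of its 150-base windows occurred in any other gene. Of the 50-base windows of Fcgr2b transcripts 6.95% occurred in 146 other genes, Fcgr3 among them. Of its 150-base windows 1.92% occurred in 4 other genes, none of them among the 8. The split of reads among genes that share windows is uncertain for the shared part, where pairs of low mapping quality were not counted. Fcgr2b also overlaps 155 exon bases of an antisense gene, Gm38204, which was counted at 9 or fewer in each library under stranded counting.

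The adaptors were the genes whose genotypes did not overlap. Fcer1g stood at 95.1 and 107 CPM in WT and at 119, 145, 178 and 234 CPM in CebpbΔM 4 to 7. Every CebpbΔM library lay above both WT libraries, with means of 101 ± 8.10 and 169 ± 49.6 CPM (SD). The log2 fold change was 0.75 (SE 0.27, edgeR QL adjusted p = 0.52). Tyrobp stood at 95.7 and 95.01 CPM in WT and at 113, 158, 156 and 202 CPM in CebpbΔM, again with no overlap. Its log2 fold change was 0.72 (SE 0.23, edgeR QL adjusted p = 0.52). Every CebpbΔM library was above every WT library for 2 of the 8 genes, and for 9.68% of all genes tested.

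Syk stood at 59.2 and 92.1 CPM in WT and at 87.8, 113, 125 and 144 CPM in CebpbΔM 4 to 7. CebpbΔM 4 lay below WT 5, and the log2 fold change was 0.63 (SE 0.26, edgeR QL adjusted p = 0.55). Fcgrt stood at 752 and 1162 CPM in WT and at 991, 1009, 1474 and 1439.6 CPM in CebpbΔM. Libraries 4 and 5 of CebpbΔM lay within the WT range, and the log2 fold change was 0.36 (SE 0.25, edgeR QL adjusted p = 0.74). With CebpbΔM libraries 6 and 7 only, a choice made after the Cebpb counts were seen, 0 of 8 were called and the log2 fold changes lay between 0.40 (Fcgr1) and 1.04 (Fcer1g). With replicates 4 and 5 only of both genotypes they lay between 0.08 (Fcgrt) and 0.56 (Fcgr2b), again with 0 of 8 called.

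**Figure D2:**
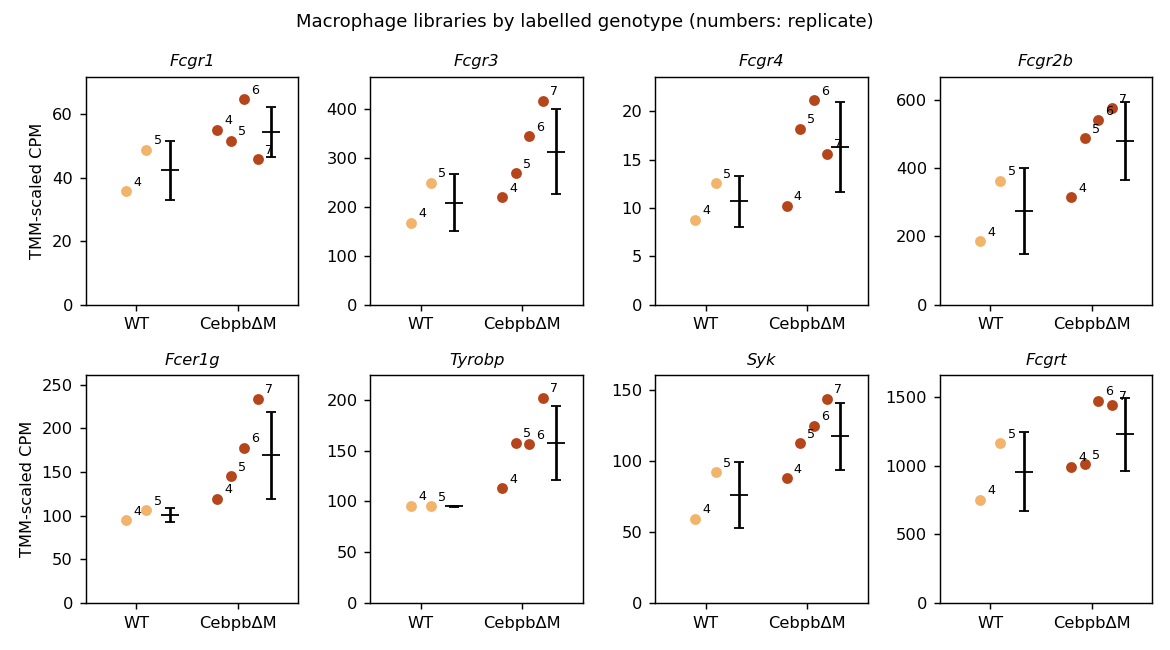
TMM-scaled CPM (linear axis from 0) of the 8 genes in the 6 macrophage libraries, with the replicate number beside each point and the mean ± SD at the right of each group. WT 4 is the lowest library for 7 genes, and for Fcer1g and Tyrobp all 4 CebpbΔM libraries lie above both WT libraries.

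Macrophage markers, a list that holds none of the 8 genes, were higher in the same libraries. All 12 of 12 markers had a positive log2 fold change in libraries labelled CebpbΔM. Their median was 0.60, against 0.62 for the 8 genes and 0.004 for all genes tested. The edgeR QL test called 0 of 12, the likelihood ratio test C1qc, and DESeq2 C1qa and C1qc, both higher in CebpbΔM. These 2 markers, with log2 fold changes of 0.79 (C1qa) and 1.21 (C1qc), are part of the marker scale below. When the libraries were scaled to the geometric mean of the 12 markers in place of TMM, the log2 fold change of all genes had a median of -0.65. On that scale the 8 genes lay between -0.27 and 0.20, with 4 positive and 4 negative and 0 called. Fcgr2b was highest at 0.20 (SE 0.24), and Fcgrt and Fcgr1 were lowest at -0.27 (SE 0.18) and -0.25 (SE 0.27). Per macrophage marker, Fcer1g was at 154 and 119 in WT and at 123, 133, 135 and 179.8 in CebpbΔM (marker-scaled CPM), so that its genotypes overlapped on this scale. Fcgr3, Fcgr4, Fcgr1 and Fcgrt took the opposite sign to that under TMM. The summed epithelial markers were lower in CebpbΔM, at 5821 to 8225 CPM against 10340.0 to 10630.0 CPM in WT, but the 12 markers did not move as one. Luminal keratins had negative log2 fold changes (Krt8 -0.89, Krt18 -0.82, Krt19 -0.79) and basal keratins positive ones (Krt14 1.53, Krt5 1.30, Krt17 0.88), as had the milk proteins Csn1s1 and Csn2. In all 5 of 12 were positive with a median of -0.15, and the edgeR QL test called 0. The likelihood ratio test and DESeq2 each called Krt8 and Krt18, lower in CebpbΔM. The geometric mean of the 12 epithelial markers was higher in CebpbΔM, at 127.6 to 485.7 CPM against 99.2 CPM in the WT library where it could be formed. Dendritic cell markers summed to 192 and 291 CPM in WT and to 313 to 626 CPM in CebpbΔM, neutrophil markers to 86.1 and 91.5 against 111 to 169.7 CPM, and T and NK cell markers to 8.22 and 11.4 against 21.3 to 27.3 CPM, with no overlap in any of these. Mmp9 and Csf3r carried the neutrophil sum, while Ly6g was at 0 counts in each library and S100a8, S100a9 and Cxcr2 at 17 or fewer. Cd2 and Cd4 carried most of the T and NK cell sum. Mast cell and stromal marker sums overlapped between genotypes. The part of the make-up of the libraries in the genotype differences was not tested. The marker scaling sets the geometric mean of the 12 markers equal in all libraries. It cannot tell more macrophages from more RNA of these genes per macrophage.

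**Figure D3:**
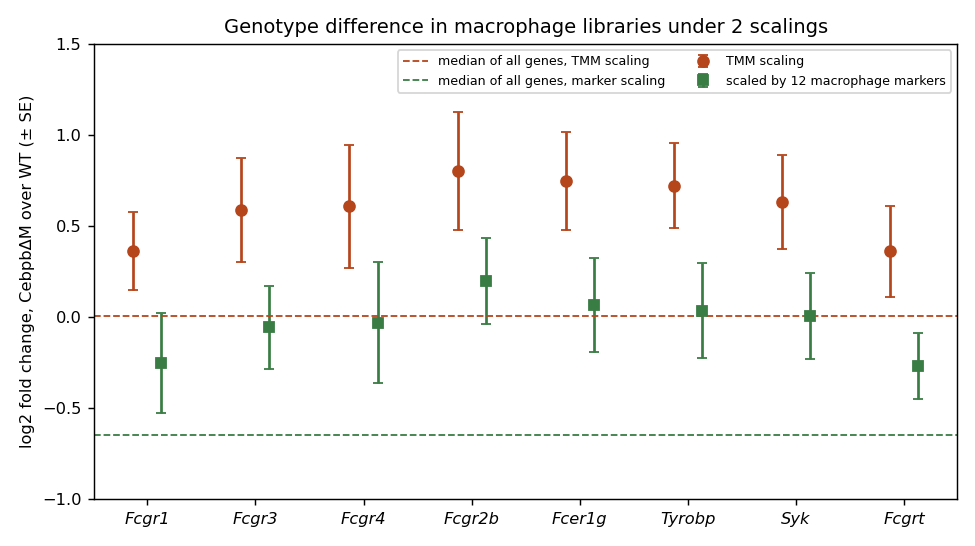
Log2 fold change (CebpbΔM over WT, ± SE) of the 8 genes in macrophage libraries with TMM scaling and with scaling to 12 macrophage markers, with dashed lines at the median of all 17772 genes under each. The 8 genes lie between 0.36 and 0.80 under TMM and between -0.27 and 0.20 under marker scaling, where the median of all genes is -0.65.

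Ratios between these genes within a library do not depend on library scaling, and they were chosen after the counts were seen. The activating receptors summed per length were 3.63 and 2.74 times Fcgr2b in WT 4 and 5, and 2.86, 2.24, 2.56 and 2.72 times in CebpbΔM 4 to 7. WT 4 stood above the rest and WT 5 lay within the CebpbΔM range. The means were 3.19 ± 0.63 and 2.60 ± 0.27 (SD), with an exact two-sided permutation p of 0.267. Fcgr3 made up most of the activating receptor mRNA in each library, 82.8 ± 0.72% in WT and 83.6 ± 3.55% in CebpbΔM. Fcgr1 made up 11.4 ± 0.59% and 10.3 ± 2.90%, and Fcgr4 5.89 ± 0.13% and 6.12 ± 1.45%. CebpbΔM 7 had the lowest Fcgr1 share, 6.55%, and the highest Fcgr3 share, 88.9%. Fcer1g per activating receptor was 0.93 and 0.71 in WT and between 0.85 and 0.99 in CebpbΔM, and the WT range covered all but CebpbΔM 7. Tyrobp was 1.24 ± 0.11 times Fcer1g in WT and 1.24 ± 0.13 times in CebpbΔM. None of the 8 ratios computed passed the exact permutation test, in which 0.133 is the smallest p, and the smallest found was 0.267.

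**Figure D4:**
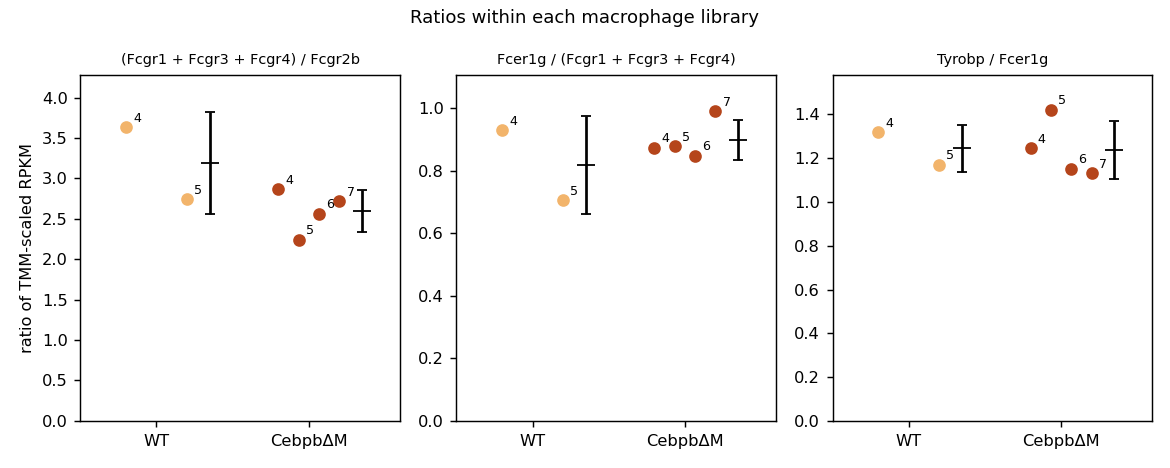
Ratios of TMM-scaled RPKM within each of the 6 macrophage libraries, with the replicate number beside each point and the mean ± SD of each group. The activating receptors lie between 2.24 and 3.63 times Fcgr2b, and WT 5 at 2.74 lies among the CebpbΔM libraries.

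In MECs only Fcgr2b and Fcgrt passed the filter on low counts, and 0 of these 2 were called, where 0.051% of 15698 genes tested (8 genes) were called in either direction. Fcgr2b was lower in both CebpbΔM MEC libraries than in both WT ones, with a log2 fold change of -0.49 (SE 0.43, edgeR QL adjusted p = 0.9997). Fcgrt had a log2 fold change of -0.086 (SE 0.21, edgeR QL adjusted p = 0.9997). The genotypes of Fcgr2b thus did not overlap, as was so for 28.7% of the genes tested. The other 6 genes held 0 to 14 counts per MEC library and were not tested. In WT against CebpbΔM, counts were higher in CebpbΔM for Syk (0 and 3 against 13 and 5) and Fcgr3 (1 and 5 against 7 and 7). They were lower for Tyrobp (6 and 12 against 4 and 2) and Fcgr4 (4 and 8 against 0 and 3), and overlapped for Fcgr1 and Fcer1g. The share of 28.7% covers only genes that passed the filter, and none is given for genes at such counts. No genotype difference is read from these 6 genes.

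Whether the genotype difference was of equal size in macrophages and MECs was asked with an interaction term fitted to the 10 libraries. None of the 8 genes passed the edgeR QL test, and 0% of the 18323 genes did (951 at an unadjusted p under 0.05), while 3 of the 8 (Tyrobp, Fcgr2b and Fcgr4) had an unadjusted p under 0.05, against 5.19% of all genes. For Fcgr2b, the one of these with over 14 counts in each MEC library, the genotype effect was 1.34 higher in macrophages on the log2 scale (SE 0.50, edgeR QL adjusted p = 0.94). The values of Tyrobp, 2.31 (SE 0.66, edgeR QL adjusted p = 0.83), and of Fcgr4, 2.57 (SE 0.998, edgeR QL adjusted p = 0.94), rest on MEC libraries of 0 to 12 counts. That of Fcgr4 was 1.66 without CebpbΔM MEC 1, and both genes passed the filter only through the macrophage libraries. Of the 8 values 6 were positive, and those of Syk, -1.80 (SE 0.98), and Fcgr3, -0.55 (SE 0.81), were negative. The values of Syk and Fcgr3 also rest on MEC libraries of 14 or fewer counts. The likelihood ratio test called 53 genes and DESeq2 27 in this comparison, with 0 of the 8 among them.

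The other genes of the pathway were taken from 7 lists, and the edgeR QL test called 0 of them in the macrophage genotype and interaction comparisons. In the macrophage comparison the likelihood ratio test called Fcmr, Siglech and Blnk, and DESeq2 called these and Fcrls, Ighm, Jchain and Prkcd, all higher in CebpbΔM. In the interaction the likelihood ratio test called Fcmr and Blnk, and DESeq2 Blnk. Directions depended on the scaling, as for the 8 genes, and each list is therefore given under TMM and under macrophage marker scaling, where the median of all genes is -0.65. Of 25 enzymes and scaffolds downstream of Syk, 24 were tested and 20 had a positive log2 fold change, with a median of 0.45 and 9 at an unadjusted p under 0.05 and higher in CebpbΔM, against the 4.96% of all genes given above. Under marker scaling 5 of 24 were positive, with a median of -0.22 and 0 higher at that p. Its most abundant members, Cdc42 and Rac1, small GTPases of the actin skeleton, had log2 fold changes of 0.22 (SE 0.14, edgeR QL adjusted p = 0.70) and 0.45 (SE 0.21, edgeR QL adjusted p = 0.60). Of 16 inhibitory receptors, phosphatases, adaptors and other restraining proteins, all tested, 12 were positive with a median of 0.33 under TMM. Under marker scaling 3 were positive, with a median of -0.31. At an unadjusted p under 0.05, 4 were higher and 1 lower under TMM, and 0 higher and 5 lower under marker scaling. No share of all genes at that p is given under marker scaling, where the median of all genes is itself -0.65. Dok2, an adaptor that restrains kinase signalling, and Sirpa, the receptor for the CD47 signal, had values of 0.40 (SE 0.34) and 0.12 (SE 0.18). The 6 Src family kinases had a median of 0.03 under TMM and -0.61 under marker scaling, and Lyn and Yes1 had values of 0.15 (SE 0.18) and -0.14 (SE 0.20).

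Of 16 receptors that signal through Fcer1g, Tyrobp or Syk, 14 were tested and 11 were positive, with a median of 0.21 under TMM, against 3 positive and a median of -0.42 under marker scaling. Csf1r, the receptor for macrophage colony-stimulating factor and the gene whose promoter drives Cre and also 1 of the 12 macrophage markers, had a log2 fold change of 0.61 (SE 0.24, edgeR QL adjusted p = 0.54), and Itgb2, the β2 integrin chain, 0.22 (SE 0.22, edgeR QL adjusted p = 0.85). Of 13 other immunoglobulin receptors 7 were tested, and 4 were positive under TMM and 3 under marker scaling. Fcmr, the receptor for IgM of lymphocytes, is named here after its values were seen. It held 0 counts in both WT macrophage libraries and 26 to 150 counts in those labelled CebpbΔM (edgeR QL adjusted p = 0.45, and 0.085 under marker scaling), and no fold is given against a group at 0. Fcrls, an Fc receptor-like gene of macrophages and microglia, was counted at 3539 and 6173 in WT and at 7550 to 9525 in CebpbΔM, with a log2 fold change of 0.98 (SE 0.24, edgeR QL adjusted p = 0.45). Trim21, a cytosolic Fc receptor, had a value of 0.41 (SE 0.25). The immunoglobulin genes and B2m had 6 of 11 tested, with 6 positive under TMM and 5 under marker scaling, and of the 4 IgG heavy chain genes in the list 3 had no count in any library and Ighg1 was counted in 1 library, at 12. Ighm had a log2 fold change of 0.85 (SE 0.22, edgeR QL adjusted p = 0.45) and B2m 0.39 (SE 0.21, edgeR QL adjusted p = 0.65). The 5 other adaptors were all tested, with 5 positive under TMM and 2 under marker scaling. Of these, Cd79b and Cd247, chains of lymphocyte antigen receptors, were the most abundant, at 6.33 and 3.47 CPM on average, far below Fcer1g and Tyrobp in the same libraries.

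**Figure D5:**
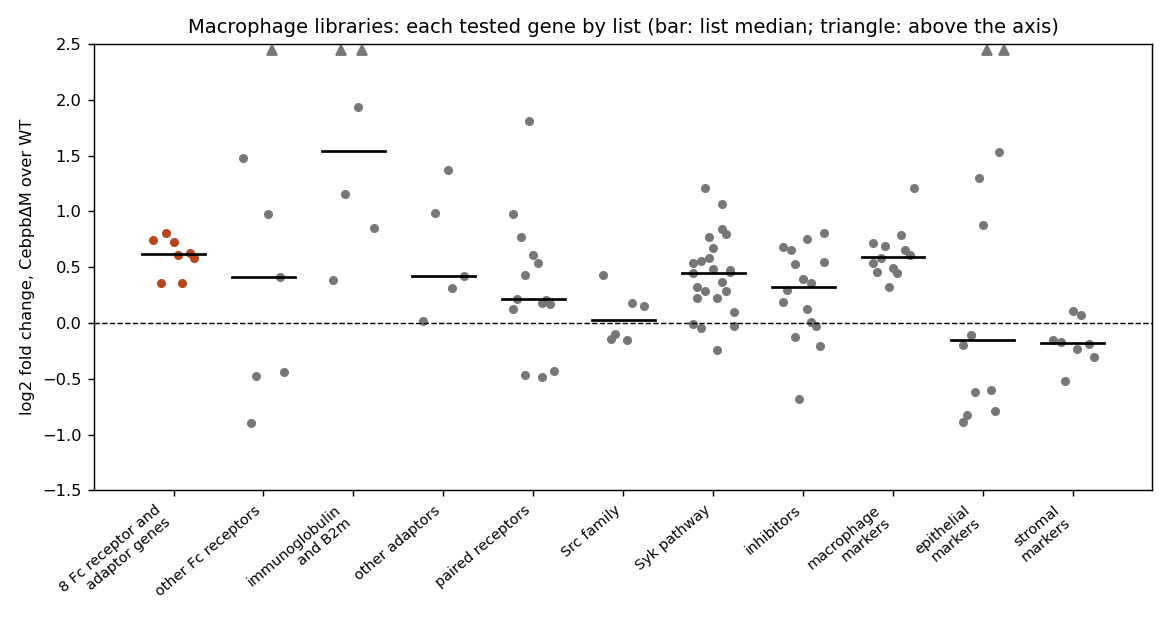
Log2 fold change (CebpbΔM over WT, macrophage libraries, TMM scaling) of each tested gene by list, with a bar at the list median, a dashed line at the median of all genes (0.004) and triangles for values above 2.5. The 8 Fc receptor and adaptor genes and the 12 macrophage markers all lie above 0 under this scaling, with medians of 0.62 and 0.60, and the Src family median is 0.03. Under marker scaling, not drawn here, the median of the 8 genes is -0.014.

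For each of the 8 genes, the genes closest in pattern were sought among 10320 genes with a mean of at least 10 TMM-scaled CPM, by the root mean square (RMS) difference of log2 CPM centred over the 10 libraries. All points share the step between cell types, so a small value reflects that step first. Fcgrt had the closest neighbours, Lgmn at 0.13 and Rinl at 0.16. Fcer1g was closest to Pld4 at 0.21 and Cfp at 0.22, Fcgr2b to Cd209c at 0.22 and Myo1g at 0.27, Fcgr3 to Cd53 at 0.24 and Pla2g2d at 0.33, and Tyrobp to H2-Eb1 at 0.27 and Hk3 at 0.28. Fcgr1 was closest to Gm19719 at 0.30 and Slc28a2 at 0.32, Fcgr4 to Gm10134 at 0.38 and Sash3 at 0.40, and Syk to Cd86 at 0.40 and Pld4 at 0.54. None of the 8 genes had another of the 8 among its closest 2. Fcgr4, with a mean below 10 CPM, was not among the genes searched and could not be a neighbour.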

How the data were processed

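RNA of 10 libraries was sequenced with paired reads by the authors, who trimmed them with Trimmomatic, mapped them to GRCm38 with HISAT2 and counted read pairs per Ensembl gene with featureCounts, using strand, pairs with both ends mapped and a minimum mapping quality. The deposited values are raw whole-number counts per gene, which the authors did not normalize, and every sample column was used. Symbols came from a GENCODE table (55141 of 55487 genes), gene positions from the count tables and promoters from RefSeq (GRCm38.p6).

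From the counts, genes of at least 300 nt with over 1 CPM in at least 2 libraries of a fit were tested with edgeR 4.0.16 (R 4.3.3): TMM scaling, glmQLFit and glmQLFTest, and Benjamini-Hochberg adjustment over all genes tested, called at 0.05. The likelihood ratio test of edgeR, which the authors used, and DESeq2 1.42.0 were run as alternatives. Cell types were fitted separately for genotype and together for the interaction and the cell type comparison. Ratios were compared with exact permutation tests (scipy 1.17.1), log2 CPM used a prior count of 2, and levels at 3 counts or fewer were taken as the floor. The test was also run on simulated counts, with changes smaller than the steps between cell types found here. No result rests on that run. Total counts were 16935000 to 27008166 per library, which limits precision for genes near the floor, and intervals cover counting error only. The alternatives were other tests, scalings and filters, a replicate block, subsets of libraries and each library left out. Named genes were the 8 genes, the 2 most abundant of each pathway list in macrophage libraries and the 2 closest in pattern to each gene. The genes and lists were chosen with earlier results of these data known.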

Additional observations from a re-analysis of the deposited data

How the results depend on the processing

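Fcgr2b and Fcgrt were called higher in macrophage libraries under each alternative in both genotypes, and the smallest log2 difference was 3.01 (Fcgrt in WT, without WT macrophage 5). In the macrophage genotype, MEC genotype and interaction tests 0 of the tested genes among the 8 were called under any alternative. Under macrophage marker scaling the macrophage genotype differences of Fcgr1 (-0.25), Fcgr3 (-0.058), Fcgr4 (-0.033) and Fcgrt (-0.27) changed sign. With a library left out, the MEC difference of Fcgrt ran from -0.23 to 0.086 (without WT MEC 3), and the interaction values from -1.10 (without WT MEC 1) to 1.62 for Fcgr1 and from -2.01 to 0.17 (without WT MEC 1) for Fcgr3. A lone library left in a group is assumed to vary like the others.

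Counts of all genes called moved more. In macrophages the genotype test called 0 genes, against 138 with the likelihood ratio test, 201 with DESeq2 and 12 with the replicate block. In MECs it called 8, against 179, 161 and 205 in that order, 38 with no filter on low counts, 0 with all 10 libraries in one fit and 2 to 337 with a library left out (98 without WT 1, 2 without WT 3, 42 without CebpbΔM 1 and 337 without CebpbΔM 3). The interaction called 0, against 53, 27 and 1, and 0 to 1 with a library left out (1 without WT MEC 3). The cell type test called 4664 genes in WT and 6174 in CebpbΔM, and 2456 to 4846 and 3496 to 6556 with a library left out. The count in WT was 2733 without MEC 1, 2456 without MEC 3 and 3041 without macrophage 5, and that in CebpbΔM was 3496 without MEC 1. The replicate numbers are not stated to pair mice. Deviations of same-numbered libraries from their group means correlated at 0.13 and -0.087 in macrophages and 0.11 and 0.11 in MECs. The 2 MEC values are equal by construction, since each MEC genotype has 2 libraries, and they count as 1 value. The block changed no call among the 8 genes. Without division by length, 3 of 8 genes kept their place in the order of levels in WT MECs, 2 in CebpbΔM MECs, 3 in WT macrophages and 1 in CebpbΔM macrophages. The 2 WT macrophage libraries differed by up to 1.95-fold (Fcgr2b), and MEC values of 6 genes rest on 0 to 14 counts.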
